A study of Mus musculus with 6 samples.

Results

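The genes described here are 9 members of the response and transduction side of hedgehog signalling, namely Gli1, Gli2, Gli3, Ptch1, Hhip, Smo, Sufu, Kif7 and Gpr161. They were taken by symbol from a deposited table of 25700 genes, all 9 were found, and all 9 passed the filter on low counts. RNA was sequenced from the proximal incisor of 5-week-old C57BL/6 mice, the stem cell end of a tooth that grows throughout life, in a tissue labelled dental mesenchyme. The cKO group was 3 mice of the genotype Gli1-CreERT2;Runx2fl/fl, in which a tamoxifen-dependent Cre, made by cells that use the Gli1 promoter, deletes the floxed gene of the transcription factor Runx2. The control group was 3 Runx2fl/fl mice, which carry the floxed alleles without Cre. Per the labels, tamoxifen in corn oil (20 mg/ml) was injected intraperitoneally on 3 days in a row at 1 month of age, at 1.5 mg per 10 g of body weight, and the incisors were profiled 1 week after induction.

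Gli1 is both the gene that drives the Cre and a member of the set. In the Gli1-CreERT2 line in common use, the Cre is inserted into the endogenous Gli1 gene and disrupts the copy it sits in. The labels do not say which line was used. Since the controls carried no Cre, loss of Runx2, the presence of the Cre and the loss of a working Gli1 copy cannot be told apart for any difference below.

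Hedgehog signalling passes through the primary cilium. Without ligand, the receptor Ptch1 holds the membrane protein Smo inactive, the cilium receptor Gpr161 keeps protein kinase A active, and the GLI transcription factors are held by Sufu and processed with the help of the kinesin Kif7, so that Gli3 above all acts as a repressor. With ligand, Smo enters the cilium and Gli2 acts as the main activator, which switches on Gli1, Ptch1 and the ligand-binding protein Hhip. Gli1 amplifies the output, while Ptch1 and Hhip are negative feedback. In the mouse incisor the ligand Shh is known from the dental epithelium, and Gli1 marks responding cells, among them mesenchymal stem cells.

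Promoter windows in RefSeq (build GRCm38.p6, from 250 bases before to 50 after an annotated start) were found for 8 members, all but Gli1. The windows of Ptch1 and Hhip, the feedback genes, are shown because a GLI factor bound at these starts would be read from such sequence. Both lie on the minus strand and are written 5′ to 3′ along the gene, Ptch1 at chr13:63565686-63565985 and Hhip at chr8:80057959-80058258. Capitals mark a stretch with the most letters in common with the GLI motif GACCACCCA on either strand. In Ptch1 it matches 6 of 9 letters, on the opposite strand, and is 1 of 4 stretches that match as many. In Hhip it matches 7 of 9 letters and no other stretch matches as many.
Ptch1: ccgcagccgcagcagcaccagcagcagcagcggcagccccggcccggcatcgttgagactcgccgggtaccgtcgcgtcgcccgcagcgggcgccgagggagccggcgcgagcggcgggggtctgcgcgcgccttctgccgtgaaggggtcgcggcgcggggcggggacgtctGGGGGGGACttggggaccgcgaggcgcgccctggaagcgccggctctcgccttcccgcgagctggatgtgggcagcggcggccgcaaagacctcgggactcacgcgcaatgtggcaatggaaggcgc
Hhip: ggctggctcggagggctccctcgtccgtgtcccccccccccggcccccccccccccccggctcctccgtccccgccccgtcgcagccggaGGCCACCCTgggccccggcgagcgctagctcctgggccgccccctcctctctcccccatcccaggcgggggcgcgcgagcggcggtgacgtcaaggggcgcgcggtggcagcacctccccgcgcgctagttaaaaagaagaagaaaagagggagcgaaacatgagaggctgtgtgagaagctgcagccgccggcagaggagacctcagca
Neither GACCACCCA nor its form with any letter at the fifth base (GACCNCCCA) was found on either strand in any of the 9 windows of the 8 members (Gpr161 has more than 1 window). Of all 32851 windows in the table, 0.253% held GACCACCCA, 0.977% held GACCNCCCA, which includes the first motif, and 58.3% held a match of at least 7 of 9 letters. The Ptch1 start in this table lies 7863 bases inside the gene span of the deposited table, so it is 1 of several starts of that gene, and the Hhip start lies within 2 bases of the end of its span. Both windows were rich in C and G, with 76.3% in Ptch1 and 73.7% in Hhip, against a median of 52.7% over all windows. They held 47 and 30 CG dinucleotides, against a median of 7. These are matches of letters in short windows and say nothing of GLI binding elsewhere.

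The libraries held 53525185 to 66694240 estimated counts each, so that 1 count was worth 0.0149 to 0.0186 counts-per-million (CPM, on library sizes scaled by the trimmed mean of M-values). The members had between 2160 and 42168 counts in every library. Counting error alone gives a coefficient of variation of 0.503% (Ptch1, control) to 1.94% (Gpr161, control), which was well below the spread between mice for Gli1, Ptch1, Hhip, Kif7 and Gli3. It was close to the whole spread for Gli2 in control mice and for Sufu and Gpr161 in cKO mice. Runx2 measured 62.6, 54.0 and 49.0 CPM in cKO mice and 79.7, 77.7 and 81.2 CPM in control mice, a cKO level 0.694 times that of control (edgeR adjusted p = 0.0714). Control 1 was the only male by its Ddx3y counts (4059, against at most 1 in the other mice), and also had more skeletal muscle RNA (178 CPM summed over 5 markers, against 11.5 to 14.2 in the other mice). The tissue held both dental mesenchyme and epithelium: all 8 mesenchyme markers and all 6 epithelium markers were detected in every mouse, and 4 enamel-matrix genes of secretory ameloblasts summed to 22163 to 46682 CPM in cKO mice and 60042 to 79541 CPM in control mice. In bulk RNA, fewer cells of a type and less RNA per cell cannot be told apart.

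The pathway's own target genes stood lower in cKO incisors, while most of its signal carriers stood within 10% of control. Gli1 was at 49.1% of the control level, Hhip at 62.1%, Ptch1 at 69.7% and Kif7 at 75.8%, and for each of these 4 genes every cKO mouse was below every control mouse. Smo was also lower in every cKO mouse, at 92.7% of control. Gli2, Gli3, Sufu and Gpr161 lay between 95.8% and 109.6% of control, with groups that overlapped. None of the 9 members passed the quasi-likelihood test of edgeR at an adjusted p under 0.05, which called 0.0260% of the 19264 genes tested. Another tool, DESeq2, called 4 members, all lower in cKO mice (Gli1, Ptch1, Hhip and Kif7), where it called 7.48% of genes in either direction, 3.55% as lower and 3.93% as higher. At an unadjusted edgeR p under 0.05 the same 4 members were lower and none was higher, against 17.3% of all genes in either direction and 8.55% as lower. Groups without overlap and lower in cKO mice were seen for 5 of 9 members, against 12.0% of all genes, and for 0 members in the other direction, against 11.1%. The median log2 fold change of the 9 members was -0.11, with 7 of 9 below 0, beside a median of 4.8e-05 over all genes tested.

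**Figure D1:**
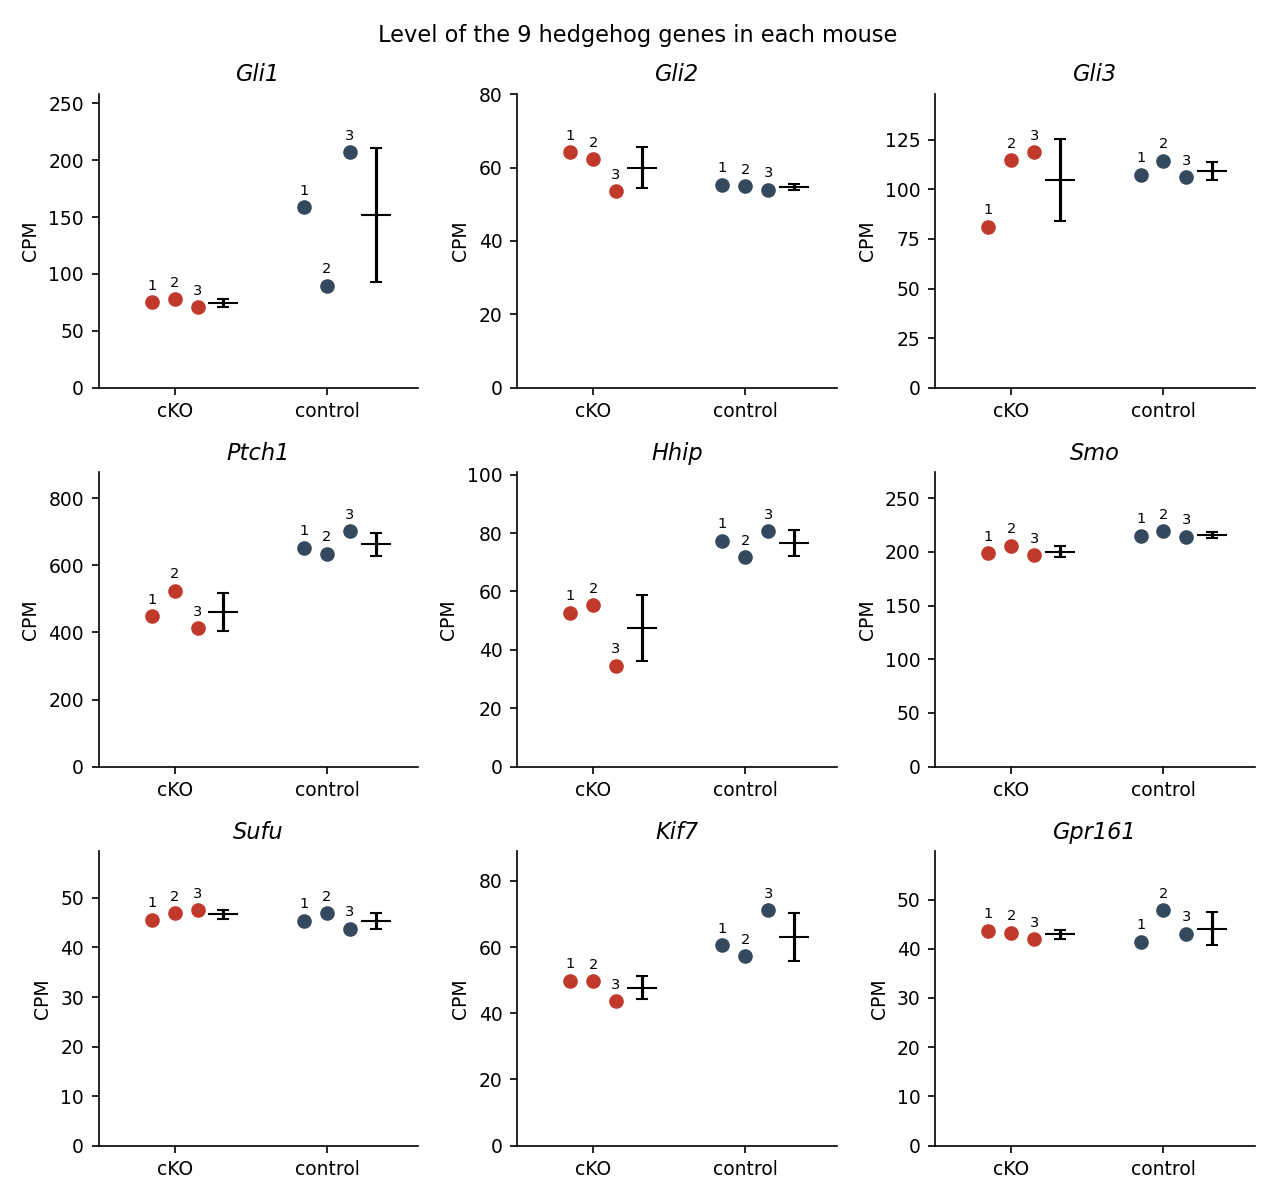
Level of each of the 9 genes in CPM (y axis, from 0), with cKO mice in red on the left and control mice in dark blue on the right. Points are single mice numbered 1 to 3 and bars beside them give mean and SD. Gli1, Ptch1, Hhip, Kif7 and, by a narrow gap, Smo show no overlap between the groups, and control 2 has a Gli1 level near those of the cKO mice.

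Gli1, the transcription factor that amplifies the response and its usual readout, measured 75.0, 77.9 and 70.6 CPM in cKO mice and 159, 89.7 and 207 CPM in control mice. The cKO mice were nearly alike, whereas the control mice differed 2.31-fold between the highest and the lowest, and control 2 stood only 1.15-fold above the highest cKO mouse. The coefficient of variation was 4.97% in cKO mice and 38.8% in control mice. The log2 fold change was -1.03 (SE 0.27, 95% interval -1.66 to -0.40, edgeR adjusted p = 0.131, DESeq2 adjusted p = 0.00185). Without control 2 it was -1.30, and Gli1 then passed (edgeR adjusted p = 0.0329). Without control 3 it was -0.74 (edgeR adjusted p = 0.273). Gli1 lies on chromosome 10, from 127329882 to 127341974 (build mm10, minus strand), and 5.31% of its exonic bases are shared with the antisense transcript Gm47200, which averaged 0.461 CPM in cKO mice and 1.13 CPM in control mice.

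Control 2 also stood apart in late enamel genes, which are made by ameloblasts after the secretory stage. Their 5 markers (Klk4, Amtn, Odam, Slc24a4 and Wdr72) summed to 2624, 1445 and 1107 CPM in cKO mice and to 112, 1798 and 98.0 CPM in control mice, and none was at 0 in any mouse. The mice low in Gli1 were thus the mice high in late enamel RNA. With the mean log2 level of these markers as a covariate, the log2 fold change of Gli1 was -0.35 (edgeR adjusted p = 0.677). For Kif7, Ptch1, Hhip and Runx2 it was -0.28, -0.46, -0.64 and -0.54 (edgeR adjusted p = 0.673, 0.606, 0.623 and 0.552). After centring, the covariate was 1.90, 0.991 and 0.892 in cKO mice and -2.41, 1.51 and -2.89 in control mice. It was thus low only in control 1 and control 3, so this fit leans on control 2 to tell it apart from genotype and cannot do so reliably. The part of enamel stage in the difference of Gli1 or of any other member was not tested. In control 2, Ptch1 and Hhip stood 1.21-fold and 1.30-fold above the highest cKO mouse, near the other control mice.

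Ptch1, the receptor that restrains Smo and is itself induced by the pathway, measured 448, 524 and 413 CPM in cKO mice and 652, 634 and 701 CPM in control mice. The control mice were close together, and the highest cKO mouse was 17.4% below the lowest of them. The log2 fold change was -0.52 (SE 0.10, 95% interval -0.76 to -0.28, edgeR adjusted p = 0.0878, DESeq2 adjusted p = 0.000147). Its rank by p was 300 among the 19264 genes tested, ahead of Kif7 at 665, Hhip at 708 and Gli1 at 910. Ptch1 spans 63508328 to 63573598 on the minus strand of chromosome 13 and shares no exonic bases with another gene in GENCODE M21.

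Hhip, the membrane protein that binds and sequesters hedgehog ligands, measured 52.7, 55.3 and 34.6 CPM in cKO mice and 77.4, 71.7 and 80.6 CPM in control mice. Here the spread was in the cKO group, where cKO 3 lay well under the other cKO mice, with a coefficient of variation of 23.7% in cKO mice and 5.88% in control mice. The log2 fold change was -0.69 (SE 0.17, 95% interval -1.08 to -0.29, edgeR adjusted p = 0.116, DESeq2 adjusted p = 0.00341), and -0.50 without cKO 3. Among cKO mice cKO 3 was the lowest for Gli1, Ptch1 and Hhip alike. Its log2 differences from the control mean were -1.10, -0.68 and -1.15. That mouse was also the lowest cKO mouse for Kif7, Smo, Gpr161 and Gli2 (-0.53, -0.14, -0.072 and -0.031). For Gli3 and Sufu it was the highest. Hhip lies on chromosome 8 from 79965851 to 80058006 on the minus strand.

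Kif7, the kinesin at the cilium tip that organises GLI and Sufu there, is not usually counted among the pathway's targets. It measured 49.8, 49.6 and 43.6 CPM in cKO mice and 60.6, 57.1 and 71.1 CPM in control mice. As with Gli1, Ptch1 and Hhip, control 3 was the highest and control 2 the lowest control mouse. The log2 fold change was -0.40 (SE 0.095, 95% interval -0.63 to -0.18, edgeR adjusted p = 0.113, DESeq2 adjusted p = 0.0120). Kif7 lies on chromosome 7 from 79698098 to 79715720 on the minus strand. It shares 19.1% of its exonic bases with the antisense transcript 9330171B17Rik, which averaged 0.719 CPM in cKO mice and 1.32 CPM in control mice, and whose reads cannot be told apart from those of Kif7 if the counting ignored strand.

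Gli2, the main activator, measured 64.2, 62.3 and 53.6 CPM in cKO mice and 55.3, 55.0 and 53.9 CPM in control mice. Its groups overlapped through cKO 3, the lowest of all 6 mice, and its log2 fold change was 0.13 (95% interval -0.042 to 0.31, edgeR adjusted p = 0.409). Gli3, the main repressor, measured 81.1, 115 and 119 CPM in cKO mice and 107, 115 and 106 CPM in control mice. Only cKO 1 was low, the other cKO mice being at or above the controls. The log2 fold change of Gli3 was -0.061 (95% interval -0.39 to 0.26, edgeR adjusted p = 0.861), and it was above 0 without cKO 1 (0.097). The data therefore allow a Gli3 level anywhere from 0.765 to 1.20 times that of control.

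The remaining carriers of the signal varied little. Smo, the transducer that Ptch1 restrains, measured 199, 206 and 197 CPM in cKO mice and 215, 219 and 214 CPM in control mice. Its groups were separated by 3.85% of the lowest control level, and its log2 fold change of -0.11 (95% interval -0.23 to 0.011) did not pass either test (edgeR adjusted p = 0.330, DESeq2 adjusted p = 0.261). Sufu, which binds GLI proteins and holds them back, measured 45.6, 46.9 and 47.5 CPM in cKO mice and 45.4, 46.9 and 43.7 CPM in control mice. Its interval for the log2 fold change, -0.080 to 0.16, was narrow and spans 0.946 to 1.12 times the control level (edgeR adjusted p = 0.732). Gpr161, the cilium receptor that opposes the pathway through protein kinase A, measured 43.7, 43.2 and 42.0 CPM in cKO mice and 41.4, 47.8 and 43.1 CPM in control mice. The log2 fold change of Gpr161 was -0.038 (95% interval -0.19 to 0.12, edgeR adjusted p = 0.813), and it was above 0 without control 2 (0.023).

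**Figure D2:**
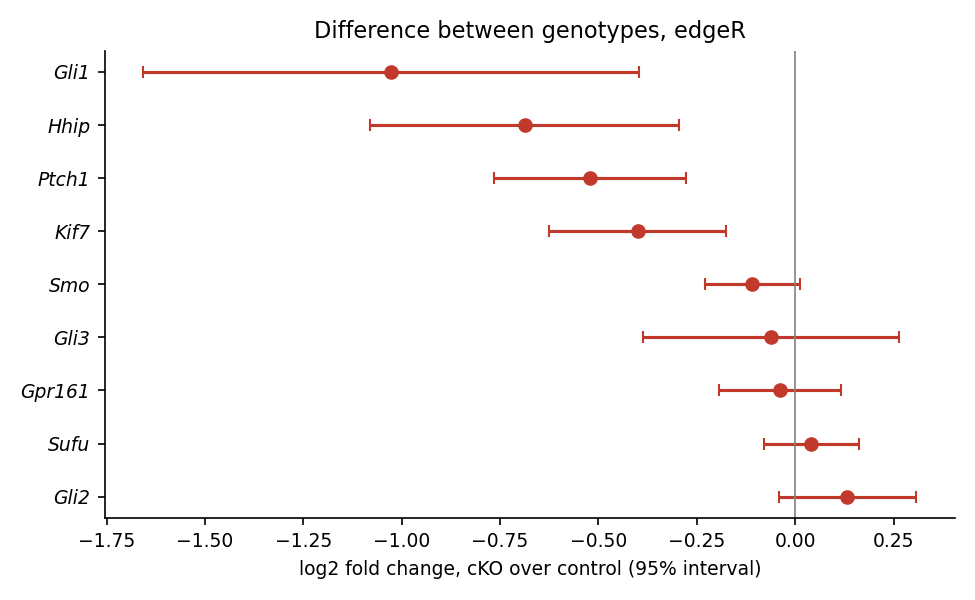
Log2 fold change, cKO over control, of each member (x axis) from the edgeR fit of all 19264 genes, with points for the estimate and bars for the 95% interval. The intervals of Gli1, Hhip, Ptch1 and Kif7 lie below 0 before any adjustment for the number of genes, and those of the other 5 members include 0.

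Set per kilobase of exon, so that genes can be compared with each other, the levels ran in the order Ptch1, Smo, Gli1, Kif7, Gli3, Gli2, Hhip, Gpr161 and Sufu by the mean over all 6 mice. Ptch1 (39.6 CPM per kb) and Smo (37.0 CPM per kb) stood at percentiles 95.2 and 94.8 of the tested genes, and Sufu, the lowest, was at percentile 62.8 with 5.98 CPM per kb. Every pair of neighbours in this order overlapped in its ranges over the 6 mice. Smo (lowest 35.0 CPM per kb) and Gli1 (highest 41.4 CPM per kb) did so only through control 3. Lengths are the union of exons over all annotated transcripts (14185 bases for Ptch1, 4581 for Kif7), so genes with rarely used exons are set too low.

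The balance of the genes at the top differed between the genotypes. The ratio of Ptch1 to Smo per kilobase was 0.893, 1.01 and 0.831 in cKO mice and 1.20, 1.15 and 1.30 in control mice, without overlap. Relative to Smo RNA, Ptch1 RNA was thus lower in every cKO mouse than in any control mouse. Smo itself was at 92.7% of control, so this ratio mainly restates the level of Ptch1. Whether a ratio lies above or below 1 depends on the lengths used. These were 14185 bases over 10 transcripts for Ptch1 and 5621 bases over 2 transcripts for Smo. The ratio of Hhip to Ptch1 averaged 0.160 ± 0.027 in cKO mice and 0.181 ± 0.0044 in control mice (SD, n = 3 each), with values that overlapped through cKO 1 (0.184).

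Among the GLI transcripts, Gli1 made up 45.8%, 42.6% and 41.2% of the summed level per kilobase in cKO mice and 62.3%, 47.4% and 68.6% in control mice. Gli2 made up 28.5%, 24.7% and 22.7% in cKO mice and 15.8%, 21.1% and 13.0% in control mice, with Gli3 as the rest. The shares of Gli1 and Gli2 did not overlap between the groups, and control 2 was again the control mouse nearest to the cKO mice. Gli3 RNA stood at 0.563, 0.767 and 0.876 times Gli1 RNA in cKO mice and at 0.353, 0.665 and 0.267 times in control mice, with control 2 inside the cKO range. Gli2 and Gli3 differed by less than 10% between the groups, so these shares mainly restate the level of Gli1.

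**Figure D3:**
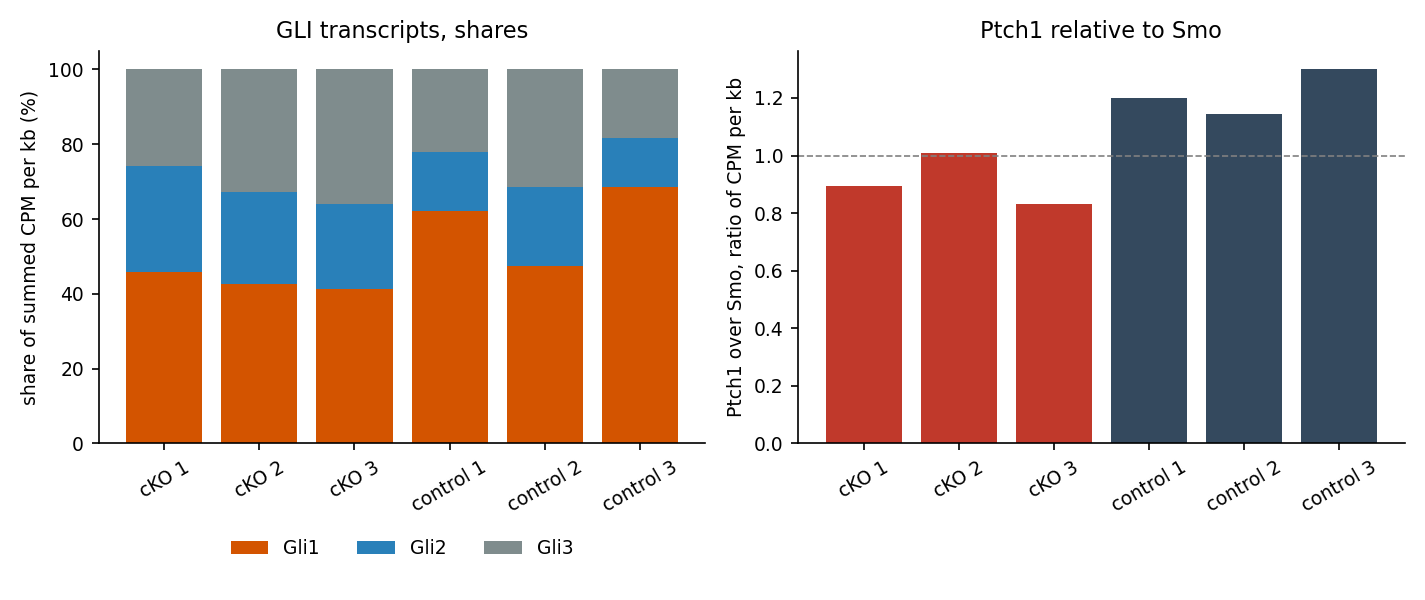
Left, share in percent of Gli1, Gli2 and Gli3 in their summed CPM per kb in each mouse. Right, ratio of Ptch1 to Smo in CPM per kb in each mouse, with a dashed line at 1. The place of the bars against this line depends on the exon lengths used. Gli1 holds 41.2% to 45.8% in cKO mice and 47.4% to 68.6% in control mice, and the Ptch1 to Smo ratio is above 1.1 only in control mice.

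Profiles over the 6 mice were compared by the root-mean-square difference of log2 CPM after centring each gene on its mean. Among the members, Gpr161 and Smo were the most alike (0.066), followed by Gpr161 and Sufu (0.069), and these flat profiles lay close together by their small spread. Of the members that stood lower in cKO mice, Kif7 and Ptch1 were the most alike (0.11), ahead of Hhip and Ptch1 (0.17).

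Among 10557 other genes with a mean of at least 10 CPM, those nearest to Gli1 were Vipr2, a receptor for vasoactive intestinal peptide (0.16), Gfra1, a co-receptor for the neurotrophic factor GDNF (0.19), Acta2, smooth muscle actin (0.20), Trib1, a pseudokinase (0.21), and the ligand gene Wnt11 (0.22). All 5 were low in cKO mice and lowest among controls in control 2. Acta2, for example, measured 66.5, 63.2 and 51.0 CPM in cKO mice and 155, 102 and 177 CPM in control mice (log2 fold change -1.26, edgeR adjusted p = 0.0669). Nearest to Ptch1 were Pmp22, a myelin protein also made outside nerves (0.048), Aff3, a nuclear transcription regulator (0.050), Shtn1 (0.051), Tdrd7 (0.057) and Lbh (0.065). Among the nearest to Hhip were the predicted gene Gm37176 (0.078), Plekhh1 (0.084), Myh11, smooth muscle myosin (0.086), and Fam49a (0.093). None of the genes named here for likeness passed the edgeR test, and a profile chosen for likeness to a member must share its difference between groups.

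**Figure D4:**
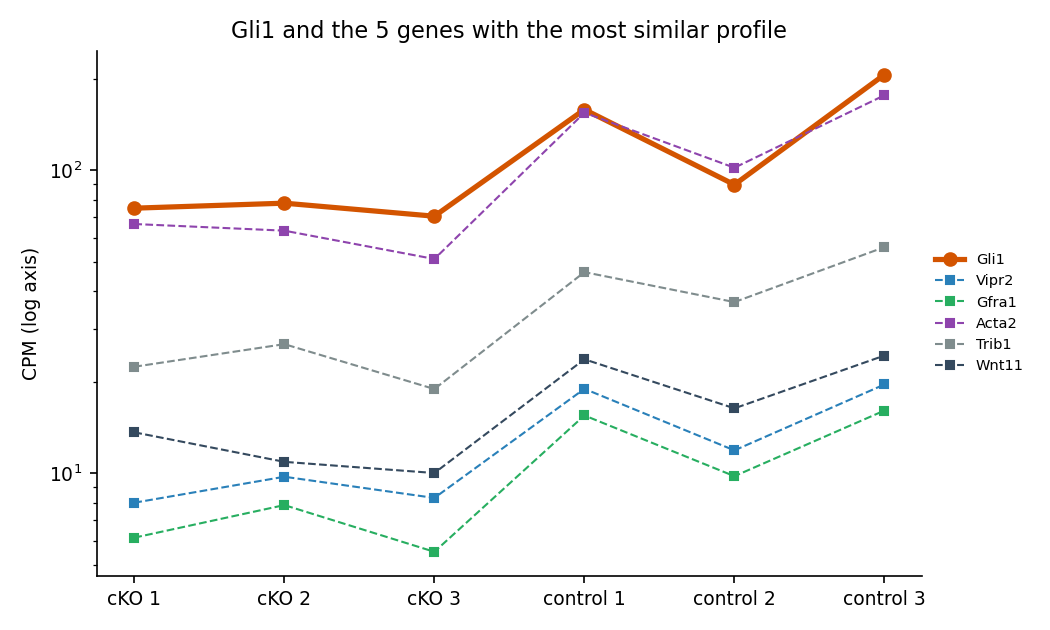
Level in CPM on a log axis (y) of Gli1 and of the 5 genes with the most similar profile in each mouse (x). All 6 lines are low in the cKO mice and dip in control 2.

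Markers of several cell types moved with the genotype and so with the lower members. Of all genes tested, 12.0% were lower in every cKO mouse than in any control mouse, and 11.1% were higher. Smooth muscle and pericyte markers were lower in every cKO mouse for 4 of 5 genes, with a summed level of 681 to 799 CPM in cKO mice and 800.0 to 1007 CPM in control mice. Most of that sum was Rgs5, which overlapped between the groups, and the other 4 genes summed to 106 to 153 CPM in cKO mice and 230 to 383 CPM in control mice. Secretory ameloblast markers were lower in every cKO mouse for 4 of 4 genes. In the other direction, 6 of 8 dental mesenchyme markers were higher in every cKO mouse, with a sum of 19161 to 34244 CPM in cKO mice and 9635 to 16532 CPM in control mice. Most of that sum was Col1a1, also made by odontoblasts, and the other 7 genes summed to 2024 to 2413 CPM in cKO mice and 1507 to 1936 CPM in control mice. All 3 odontoblast markers were higher in every cKO mouse too, with a sum of 6309 to 12500 CPM in cKO mice and 2777 to 4890 CPM in control mice. All 3 endothelium markers (362 to 380.4 CPM in cKO mice, 296 to 317 CPM in control mice) and all 3 macrophage markers (190.3 to 223 CPM in cKO mice, 112 to 148 CPM in control mice) were likewise higher in every cKO mouse. Schwann cell markers overlapped, at 16.9 to 22.4 CPM in cKO mice and 14.2 to 30.9 CPM in control mice. Dental epithelium markers overlapped, at 1917 to 3112 CPM in cKO mice and 1971 to 2596 CPM in control mice. Proliferation markers were lower in every cKO mouse for 3 of 5 genes, with a sum of 293 to 315 CPM in cKO mice and 314 to 468 CPM in control mice, overlapping by a narrow margin. None of these markers was at 0 in any mouse. Their part in the lower Gli1, Ptch1, Hhip and Kif7 was not tested. Neutrophil and marrow markers were high in cKO 1 and cKO 2 (40.7 and 18.7 CPM) against 2.13 CPM in cKO 3 and 1.28 to 2.52 CPM in control mice, with Camp and Mpo at 0 in some mice. Gli2 was likewise highest in cKO 1 and cKO 2, and whether the 2 are linked was not tested.

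The other genes of the pathway were read from 4 lists. Of 12 ligands, release factors and co-receptors, 10 were tested and none passed by edgeR, with 3 lower and 1 higher at an unadjusted p under 0.05 and by DESeq2 alike, and a median log2 fold change of -0.020. Of all genes, 17.3% had an unadjusted p under 0.05 (8.55% lower) and DESeq2 called 7.48% (3.55% lower). Shh, the ligand, averaged 166 ± 44.3 CPM in cKO mice and 291 ± 54.9 CPM in control mice (SD, n = 3 each), a log2 fold change of -0.81 (edgeR adjusted p = 0.131, DESeq2 adjusted p = 0.00356), and every cKO mouse lay below every control mouse. Boc, a co-receptor that binds ligand, averaged 33.4 ± 1.48 CPM in cKO mice and 23.0 ± 1.09 CPM in control mice (log2 fold change 0.54, edgeR adjusted p = 0.0610, DESeq2 adjusted p = 3.71e-08).

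Among 11 other response genes none passed by edgeR, 4 were lower and 0 higher at an unadjusted p under 0.05, 2 were lower by DESeq2, and 10 of 11 were below 0, with a median of -0.29. Of all genes 8.55% were lower at that unadjusted p, 3.55% by DESeq2, and 9628 of 19264 were below 0. Cdk6, a cell cycle kinase, averaged 18.9 ± 0.853 CPM in cKO mice and 25.1 ± 3.30 CPM in control mice (log2 fold change -0.41, edgeR adjusted p = 0.120, DESeq2 adjusted p = 0.0171). Bcl2, which protects from apoptosis, averaged 28.3 ± 2.48 CPM in cKO mice and 34.5 ± 1.17 CPM in control mice (-0.29, edgeR adjusted p = 0.137, DESeq2 adjusted p = 0.0401).

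The machinery between Smo and the GLI factors had medians near 0. Of 21 genes of Smoothened transport and the cilium none passed by edgeR, with 3 lower and 2 higher at an unadjusted p under 0.05, 1 lower by DESeq2 and a median of 0.0039. These 5 of 21 and 1 of 21 stand beside 17.3% and 7.48% of all genes. The exception by DESeq2 was Arrb1, a beta-arrestin that binds activated receptors, with 185 ± 15.6 CPM in cKO mice and 263 ± 25.5 CPM in control mice (log2 fold change -0.50, edgeR adjusted p = 0.0819, DESeq2 adjusted p = 0.000204). Its paralog Arrb2 averaged 26.6 ± 0.742 CPM in cKO mice and 22.7 ± 1.14 CPM in control mice (0.23, edgeR adjusted p = 0.147). The last list held 22 genes, GLI kinases and ubiquitin ligases with related genes such as Gnas, Kif27 and Numb. None of them passed by either tool, with 1 lower and 0 higher at an unadjusted edgeR p under 0.05 and a median of -0.048. Of these 22 genes 19 were below 0, against 9628 of all 19264. For 4 of 22 every cKO mouse was lower and for 0 every cKO mouse was higher, against 12.0% and 11.1% of all genes. The 2 of lowest p were Numb, an adaptor of GLI degradation (log2 fold change -0.46, edgeR adjusted p = 0.242), and the kinase Dyrk1a (-0.095, edgeR adjusted p = 0.333).

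**Figure D5:**
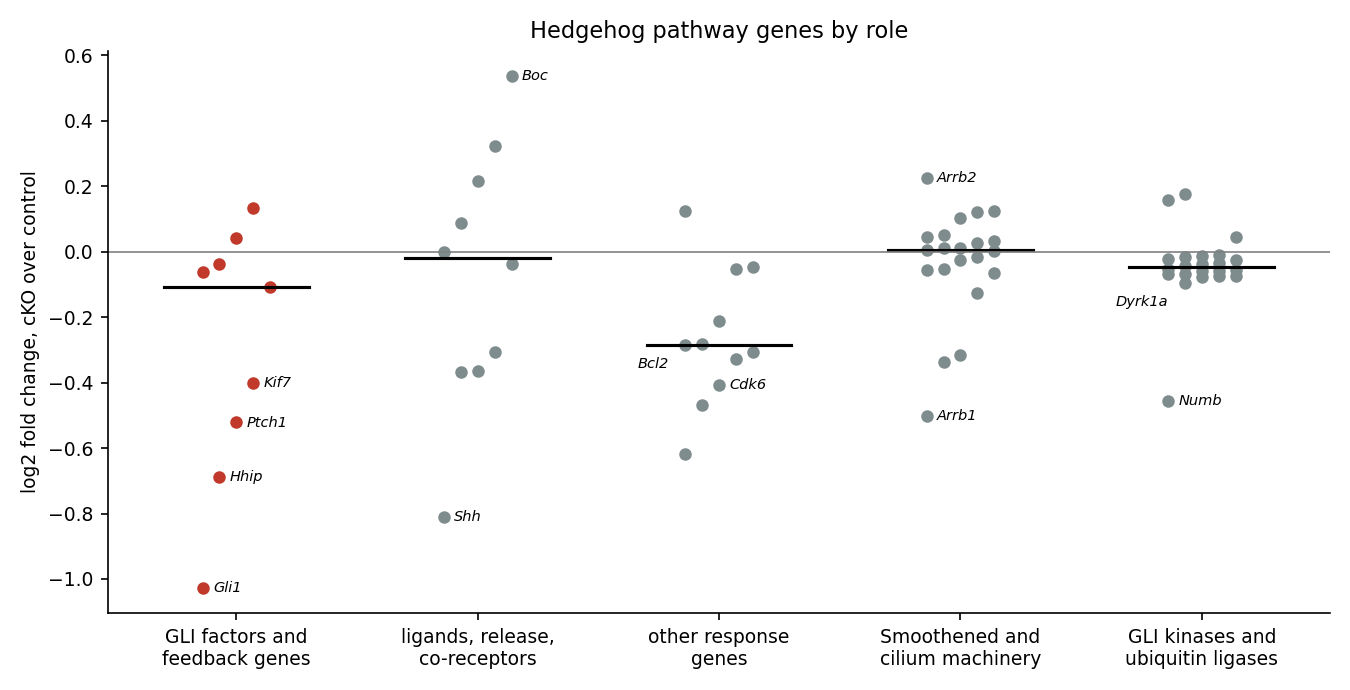
Log2 fold change, cKO over control (y axis), of every tested hedgehog pathway gene by role (x axis), with a line at the median of each group. Members are red and other genes grey, with the named ones labelled. The medians are -0.11, -0.020, -0.29, 0.0039 and -0.048 from left to right, and Gli1 and Shh lie lowest.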

How the data were processed

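RNA-seq of 6 mice was analysed from tables the authors deposited. Reads were handled with STAR 2.6.1d and Partek on build mm10, per the submitters' processing notes. For counting settings, annotation and strand, the value was not given in the sources used here. Of the deposited tables, the first holds estimated counts, of which 45.6% to 48.0% per library were whole (tolerance 1e-09), and no column was left unused. The other deposited table gives 20676 genes as a normalized signal, which the authors made as the count plus 1 times 1 factor per library (checked on the values, 100% within 0.1%). It served only as an alternative.

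Counts were rounded, filtered with filterByExpr (minimum count 10, total 15), which left 19264 genes, scaled by TMM and tested with the edgeR 4.0.16 quasi-likelihood F-test in R 4.3.3. The test was two-sided, and p-values were adjusted by Benjamini-Hochberg across these genes (threshold 0.05). Standard errors are fold changes divided by the root of F, and intervals are at 95%. Alternatives used DESeq2 1.42.0, limma 3.58.1, other scalings and filters, a late enamel covariate and each mouse left out. Replicates are separately numbered mice, numbered here in accession order. Pairs within groups differed beyond counting noise (chi-square per degree of freedom 46.0 to 73.3). Gene lists, members and the rule for named genes (the members, Runx2, the 2 lowest p of each list and the 5 nearest profiles of Gli1, Ptch1 and Hhip, with 0.5 CPM added before log2) were chosen with earlier results of these data known; 1 of the nearest profiles is not reported here. Gene positions were copied from the deposited table (mm10), less 1 base at the end. Exonic lengths and overlaps come from GENCODE M21 on the same assembly. Scripts were tested on simulated data.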

Additional observations from a re-analysis of the deposited data

How the results depend on the processing

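No paired analysis was possible because the labels do not say which mice belong together. The labels' extraction text speaks of 3 pairs without naming them, so the design may be paired, which the errors and p-values here do not use. Of 130 log2 fold changes (9 members and Runx2 under 13 alternatives), 122 kept their direction and their side of the threshold, 6 passed it and 2 turned. With each mouse left out Gli3 ran between -0.16 and 0.097 (above 0 without cKO 1) and Gpr161 between -0.076 and 0.023 (above 0 without control 2). The count of members passing was 4 with DESeq2, which called 7.48% of genes. With each mouse left out it was between 0 and 1, the 1 being Gli1 without control 2, where 0.366% of genes passed. The count was 0 under the 6 other alternatives, which used edgeR or limma. At an unadjusted p under 0.05 these gave 4 members, or 2 with the late enamel covariate, where 1446 of 19264 genes had such a p. In the main fit, 17.3% of all genes had an unadjusted edgeR p under 0.05. The causes were not tested. DESeq2 called 4 ligand, release and co-receptor genes, 2 other response genes and 1 gene of the Smoothened and cilium list, and 0 of the kinase and ligase list. Over all genes, 5 passed by edgeR, 1327 by DESeq2, 0 with a filter of 1 CPM (2843 at an unadjusted edgeR p under 0.05), 0 with the late enamel covariate (1446 at an unadjusted edgeR p under 0.05) and between 0 and 72 with each mouse left out. The edgeR count was 0 without cKO 1, cKO 2 or control 1 (3278, 2700 and 3103 at an unadjusted p under 0.05), 8 without cKO 3, 3 without control 3 and 72 without control 2. At this depth, counting error was near the whole spread for Gli2 in control mice and for Sufu and Gpr161 in cKO mice.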
